A study of Mus musculus with 40 samples.

Results

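Regulatory T cells (Treg) that had been stimulated through the T cell receptor were compared with conventional CD4 T cells that had been cultured without stimulation. The members were chosen by their sample titles: 3 arrays titled as activated Treg and 2 titled as conventional T cells, 5 of the 40 arrays of the series. Another group of 3 arrays, resting Treg, served to separate genes by whether unstimulated Treg differed as well. All 8 arrays came from mouse CD4 T cells of the C57Bl/6 strain with the Foxp3GFP genotype, a reporter that marks cells expressing Foxp3 with green fluorescent protein. Activated and resting Treg were sorted as CD4+ CD45RBlow GFP+ cells, and conventional T cells as CD4+ CD45RBhi GFP- cells. All were cultured for 48 h in RPMI medium with 10% fetal bovine serum. Activated Treg received antibodies to CD3 and CD28, and the other groups were left untreated. In the labels the cells come from bone marrow, with no age or sex of the mice, and there is no group of stimulated conventional T cells. Lineage, the CD45RB gate and stimulation therefore all differ between the groups compared, and resting Treg removes the stimulation but not the CD45RB gate. The labels do not say whether arrays of a group came from separate animals or cultures, so the p-values measure only the spread between arrays, which may be technical.

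Foxp3 is the transcription factor that defines the Treg lineage and maintains expression of high-affinity IL-2 receptor, CTLA-4 and other molecules by which these cells restrain immune responses. CD45RB is high on naive CD4 T cells and low on antigen-experienced cells and most Treg. Engagement of the T cell receptor together with CD28 switches on immediate early transcription factors through calcium and MAP kinase signals, and later drives T cells into the cell cycle.

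RNA was measured on Affymetrix mouse expression arrays, and values are given as deposited log2 signal, so a difference of 1 is a doubling. Of 18194 named genes, each read by 1 probe set, limma called 1765 (9.7%) at an adjusted p under 0.05, 1079 higher (5.93%) and 686 lower (3.77%) in activated Treg. In total 1404 of these genes differed by at least 1 on the log2 scale and 220 by at least 3. The activated and conventional arrays did not overlap in any of the 1765 genes, and over all genes the activated arrays lay wholly above in 21.4% and wholly below in 19.7%. The arrays stood apart in the 3' minus 5' log2 signal of control genes, a quality measure. For Actb it was between 5.87 and 6.17 on activated replicates 1 and 2 and resting replicate 1. It was between 1.24 and 2.67 on the other 5 arrays, which are both conventional arrays, activated replicate 3 and resting replicates 2 and 3. For Gapdh the same arrays stood apart, at between 3.69 and 4.33 against between 2.69 and 3.08 on those 5. Activated replicate 3 is the only activated array among those 5. A call lost on them can therefore follow from the smaller number of arrays, and the part of array quality in such losses was not tested. With those 5 low arrays alone, 873 genes were called, and without conventional replicate 1 or 2 the count was 433 or 565, the remaining array then taking its spread from the other groups. Without activated replicate 2 it was 1127, and with array weights 5894. The weights favoured both conventional arrays (2.98 each) and activated replicate 2 (2.61) over activated replicates 1 and 3 (0.40 and 0.33). Cd3e, a subunit of the T cell receptor complex, was at 10.17, 10.05 and 10.03 on activated, 9.89, 9.63 and 9.65 on resting and 9.87 and 9.81 on conventional arrays, and missed the threshold. Of the other T cell markers, Cd4 differed by -1.20 (limma adjusted p = 0.0655) and Cd247, the zeta chain, by -0.90 (limma adjusted p = 0.329), with every Treg array below both conventional arrays. Cd3d and Cd3g differed by -0.58 and -0.34 and missed the threshold as well. These differences followed the Actb measure. On activated replicate 3 they were -0.55 for Cd4, -0.09 for Cd247, 0.08 for Cd3d and -0.17 for Cd3g. On activated replicates 1 and 2 they were -1.53, -1.30, -0.91 and -0.42. The part of array quality in them was not tested. In these bulk samples fewer cells of a type and less RNA per cell cannot be told apart.

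The 4 marker genes of the comparison fell into 3 patterns across the groups. Foxp3 (Entrez 20371) had signals of 10.74, 10.91 and 10.77 in activated Treg, 10.38, 10.33 and 10.60 in resting Treg, and 3.95 and 4.05 in conventional T cells. The Treg groups were far above the conventional cells, as the GFP gate at the sort fixes. Activated minus conventional was 6.81 ± 0.16 (SE, 112-fold, limma adjusted p = 9.94e-07). After culture the Treg groups were close to each other. Every activated array was above every resting array, but the difference, 0.37 ± 0.14, missed the threshold (limma adjusted p = 0.347). Il2ra (Entrez 16184), the CD25 chain of the IL-2 receptor, was at 10.72, 11.05 and 10.53 in activated, 9.76, 9.24 and 8.54 in resting and 3.67 and 3.72 in conventional cells. The groups did not overlap, and the lead of activated over conventional cells was 7.07 ± 0.33 (limma adjusted p = 1.64e-05), while that over resting Treg, 1.59 ± 0.29, missed the threshold at limma adjusted p = 0.0605.

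Tnfrsf9 (Entrez 21942), which encodes the costimulatory receptor 4-1BB, was at 11.98, 11.75 and 11.42 in activated, 8.99, 8.23 and 9.23 in resting and 5.79 and 6.03 in conventional cells. It formed 3 separate steps: resting Treg exceeded conventional cells by 2.91 ± 0.30 (limma adjusted p = 0.00112) and activated exceeded resting Treg by 2.90 ± 0.27 (limma adjusted p = 0.00678), which sum to 5.81 ± 0.30. Lag3 (Entrez 16768), an inhibitory receptor that binds MHC class II, was at 8.12, 8.40 and 8.98 in activated, 5.0, 5.49 and 5.64 in resting and 4.52 and 4.51 in conventional cells. Only the activated arrays were far from the others, with 3.99 ± 0.28 over conventional cells (limma adjusted p = 0.000122) and 3.12 ± 0.25 over resting Treg (limma adjusted p = 0.00506). Resting Treg exceeded conventional cells by 0.86 ± 0.28, which missed the threshold (limma adjusted p = 0.146).

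**Figure D1:**
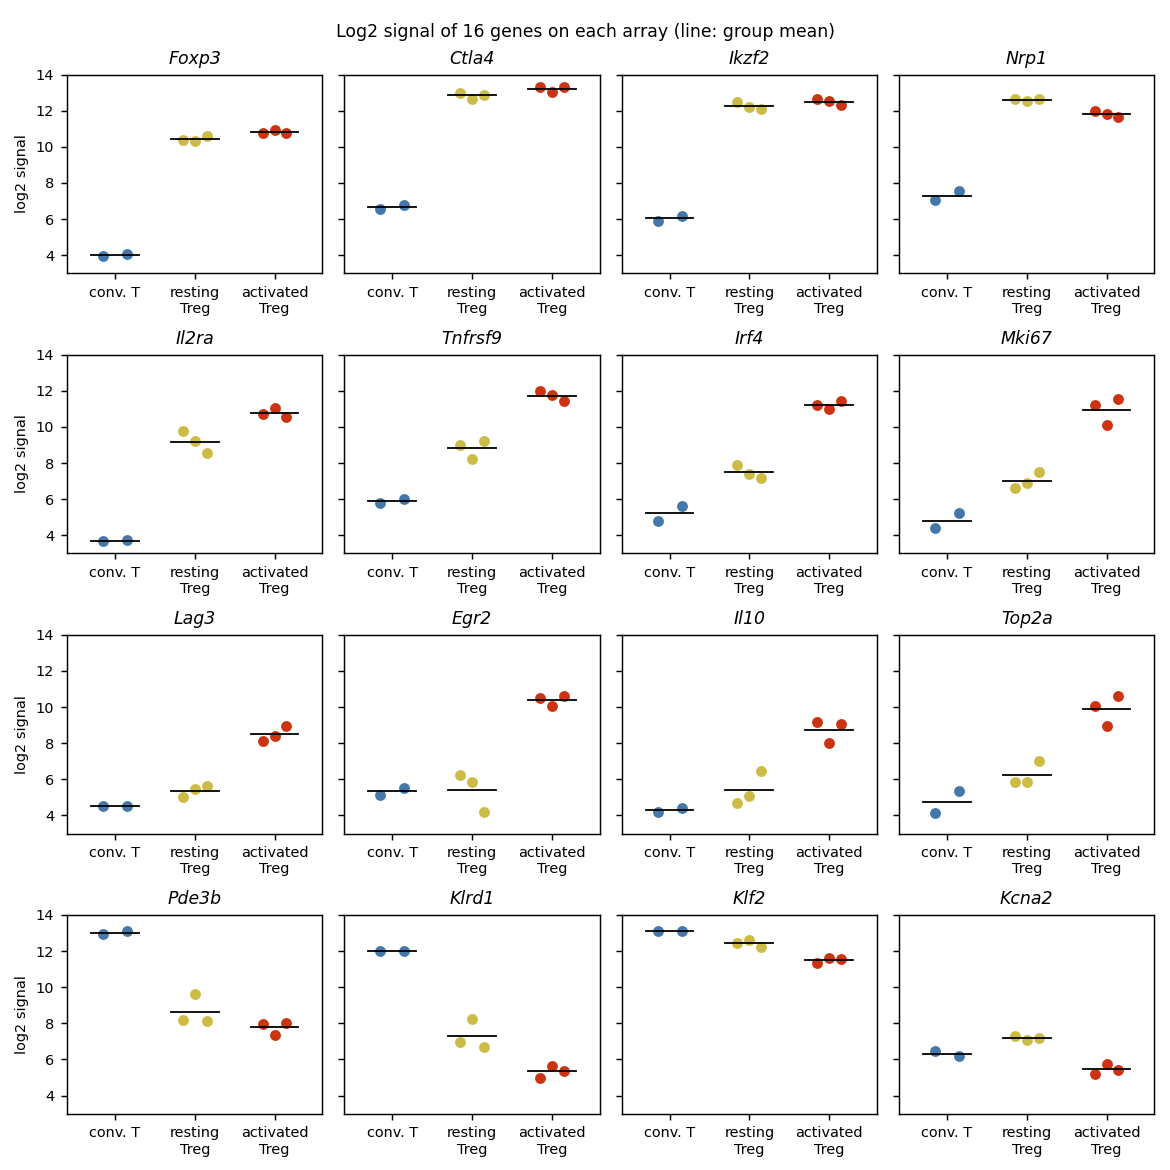
Log2 signal (vertical axis) of 16 genes on each array of conventional T cells (2 arrays), resting Treg (3) and activated Treg (3), with points for arrays and lines for group means. Foxp3, Ctla4, Ikzf2 and Nrp1 are high in both Treg groups, Lag3, Egr2, Il10 and Top2a are high in activated Treg, and Pde3b and Klrd1 are low in both.

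These patterns were used to split the 1765 genes with the resting Treg arrays. A gene was placed with those shared with resting Treg if it was also called, in the same direction, for resting Treg against conventional T cells. It was placed with the stimulated Treg genes if it missed that test and was called in the same direction for activated against resting Treg, and was left as not separable if it passed neither. Resting Treg differed from conventional cells at 1003 genes (5.51%; 3.86% higher and 1.65% lower) and activated from resting Treg at 135 (0.742%; 0.522% higher and 0.22% lower). Both comparisons against conventional T cells use the same 2 conventional arrays, so the split is a description and not a further test.

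Of the 1765 genes, 803 were shared with resting Treg, 573 higher (3.15% of genes tested) and 230 lower (1.26%). The stimulated Treg genes numbered 90, with 72 higher (0.396%) and 18 lower (0.0989%). Another 871 were not separable, 434 higher (2.39%) and 437 lower (2.4%), and 1 (0.0055%), Kcna2, was called in opposite directions in the Treg groups. These arrays thus assign 871 of the 1765 called genes to neither side. The higher shared genes had a median difference of 1.92 in activated and 1.83 in resting Treg, the higher stimulated Treg genes 2.48 and 0.09, and the higher genes not separable 1.29 and 0.66. For the lower genes not separable the medians were -1.18 and -0.67. Resting Treg differed in the same direction in 425 of the 434 higher and 424 of the 437 lower genes not separable, with the same conventional arrays in both differences. The sizes of the splits depended on single arrays: the stimulated Treg genes numbered 8 without activated replicate 1, 49 without activated replicate 3, 24 without resting replicate 2, and 25 or 27 without conventional replicate 1 or 2. The shared genes numbered 217 or 261 without conventional replicate 1 or 2, and 506 on the 5 arrays with a low Actb difference, where the stimulated Treg genes numbered 21. With the sets formed by the codes in the sample titles as a block, chosen after the data were seen, 1268 genes were shared, 35 were stimulated Treg genes and 679 were not separable.

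**Figure D2:**
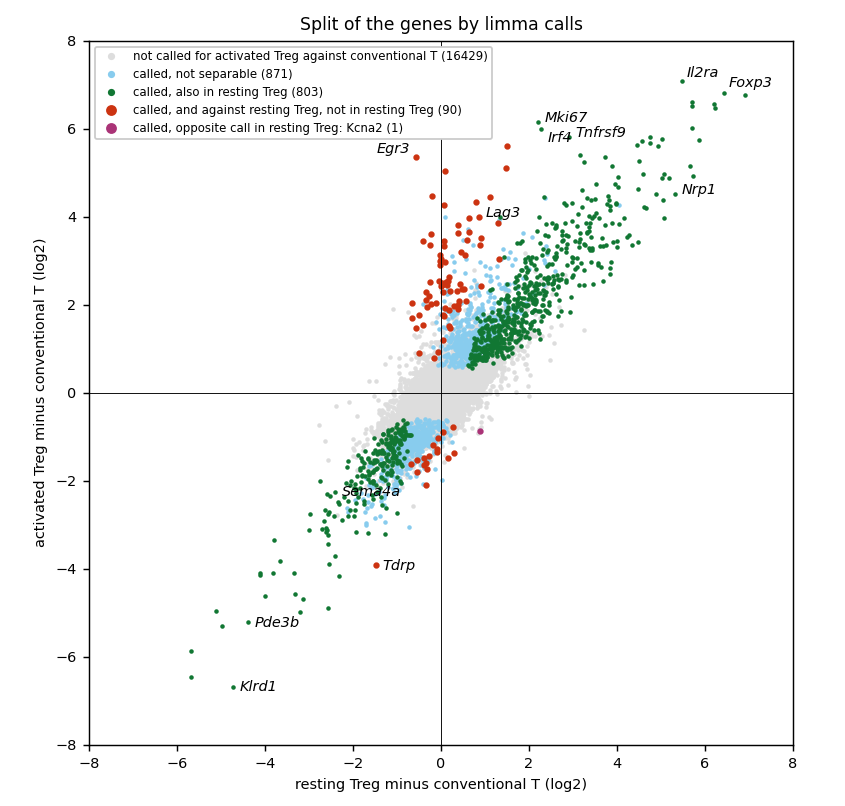
Each point is a gene, with the log2 difference between resting Treg and conventional T cells on the horizontal axis and that between activated Treg and conventional T cells on the vertical axis. Green genes (803) were called in both, red genes (90) were called in activated Treg and against resting Treg, and light blue genes (871) were called in activated Treg alone, without a call on either other comparison. Both axes share the same 2 conventional arrays.

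The genes shared with resting Treg included nearly the whole Treg identity list. Of its 32 measured members 31 were higher in activated Treg and none lower, with a median difference of 4.09 against 0.0167 for all genes tested. Of the 31, 29 were shared with resting Treg, and Ccr8, a chemokine receptor, and Capg, an actin-capping protein, were not separable. Izumo1r, the folate receptor 4 gene, was the member that missed the threshold, at 9.93, 10.19 and 11.77 in activated against 8.65 and 8.69 in conventional cells. The list count lay between 26 and 31 when any 1 array was left out, and was 32 on the 5 arrays with a low Actb difference. The cells were sorted on Foxp3, so the difference in Foxp3 itself was set by the gate. Counts for this and all later gene lists stand beside shares over all genes of 5.93% higher and 3.77% lower.

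The transcription factors of the list include Ikzf2, which encodes Helios. Its signals were 12.66, 12.56 and 12.30 in activated, 12.48, 12.20 and 12.08 in resting and 5.91 and 6.16 in conventional cells. The Treg groups overlapped each other and lay wholly above the conventional cells, by 6.47 ± 0.19 for activated Treg (limma adjusted p = 1.75e-06). Plagl1, a zinc finger factor, was higher by 6.02 and Ikzf4, which encodes Eos, by 3.33.

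Among surface molecules, Ctla4, which competes with CD28 for its ligands, was at 13.31, 13.03 and 13.30 in activated, 13.00, 12.67 and 12.88 in resting and 6.53 and 6.78 in conventional cells. The activated arrays were just above the resting ones and far above the conventional ones, by 0.36 ± 0.16 and 6.56 ± 0.18, and the smaller difference missed the threshold (limma adjusted p = 0.445). Itgae, the integrin chain CD103, was higher by 6.52, the activation-associated Cd83 by 6.61, and the coreceptor gene Nrp1 by 4.53 ± 0.19. Nrp1 was at 11.96, 11.84 and 11.64 in activated, 12.64, 12.56 and 12.63 in resting and 7.05 and 7.53 in conventional cells. Every activated array was below every resting array for Nrp1, by 0.80 on average, but limma's adjusted p of 0.0907 missed the threshold. Niban1, a stress-responsive gene, was as high in resting as in activated Treg (6.90 and 6.77 over conventional cells).

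Of 30 cytokine receptor chains 8 were higher and 6 lower. Il2rb, a signalling chain of the IL-2 receptor, was higher by 4.32 and shared with resting Treg. The lower ones included Il6ra (-3.06), the IL-6 binding chain, Tgfbr3 (-4.57), the TGF-beta coreceptor betaglycan, and Il7r (-1.33), which naive and memory T cells use for survival. Il1r2, a decoy receptor for IL-1, was higher by 4.44. Il6ra was at 7.04, 7.97 and 8.86 in activated, 9.21, 11.18 and 10.50 in resting and 10.55 and 11.50 in conventional cells, so that resting Treg overlapped the conventional cells. Every activated array was below every resting array, but activated minus resting, -2.34, missed the threshold (limma adjusted p = 0.142). The gene was therefore not separable. The call for Il6ra was lost without either conventional array, without activated replicate 1 or 2, and on the 5 low arrays. It was lost with the title code sets as a fixed block as well.

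Of 19 suppressive mediators 10 were higher and 1 lower. Il10, the gene of the anti-inflammatory cytokine, was the 1 stimulated Treg gene among them, with 9.17, 8.01 and 9.06 in activated, 4.67, 5.08 and 6.46 in resting and 4.20 and 4.39 in conventional cells. The activated arrays lay above all others, by 4.45 ± 0.53 over conventional cells (limma adjusted p = 0.00153) and 3.34 ± 0.47 over resting Treg (limma adjusted p = 0.0268). In contrast, Itgb8, the integrin chain that activates latent TGF-beta, was shared (5.64 in activated and 4.47 in resting Treg). Fgl2, a secreted fibrinogen-like suppressor, was shared as well (5.16 and 3.88), as were Nt5e (3.43 and 3.13) and Entpd1 (2.63 and 2.98), whose products CD73 and CD39 turn extracellular ATP into adenosine. The cytolytic genes differed in direction: Gzmb was higher by 2.27 and Prf1 lower by 1.65 on the log2 scale, both not separable, and for Prf1 another probe set had the opposite sign. The Prf1 call was lost without either conventional array, without activated replicate 1 or 3, without resting replicate 2, with the mean of all probe sets, and on the 5 low arrays.

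Of 25 costimulatory and TNF receptor genes 12 were higher and 2 lower, and 11 of the higher ones were shared with resting Treg. Tnfrsf4 (OX40), Tnfrsf1b (TNF receptor type II) and Tnfrsf18 (GITR) were higher by 3.85, 4.21 and 2.45. Cd86, a ligand of CTLA-4 and CD28 best known from antigen-presenting cells, was the shared gene that ran against stimulation. It was at 6.59, 6.65 and 6.94 in activated, 7.59, 7.69 and 7.83 in resting and 4.25 and 4.23 in conventional cells. Both Treg groups were above the conventional cells, and activated Treg were below resting Treg by 0.98 on average (limma adjusted p = 0.0372). Of 573 higher shared genes it was the only one called lower against resting Treg, while 14 were called higher again. Of 15 inhibitory receptors 8 were higher and 2 lower. Pdcd1, which encodes PD-1, was at 10.31, 8.97 and 10.14 in activated, 9.52, 10.02 and 11.39 in resting and 4.56 and 4.76 in conventional cells. Its Treg groups overlapped, with 5.15 in activated and 5.65 in resting Treg over conventional cells.

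Of 30 chemokine receptor, homing and integrin genes 12 were higher and 6 lower. The higher ones included Cxcr5 (4.87), the receptor for follicular homing, Cxcr3 (4.21), a receptor of type 1 inflamed tissue, Ccr6 (4.01) and Gpr15 (3.97), and these were shared with resting Treg. Cxcr5 was at 9.0, 9.15 and 9.33 in activated, 9.54, 9.34 and 9.52 in resting and 4.22 and 4.36 in conventional cells. The resting arrays were all slightly above the activated arrays, by an amount (0.31 ± 0.15) that missed the threshold (limma adjusted p = 0.498). The 6 lower genes, among them S1pr1 (-3.01) and Ccr7 (-1.51), receptors by which naive cells leave and enter lymph nodes, were all not separable. S1pr1 lost its call without conventional replicate 1. Ccr7 lost its call without either conventional array, without activated replicate 1 or 2, without resting replicate 2, and on the 5 low arrays. It also lost it with the title code sets as a fixed block.

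The semaphorin pathway list, chosen because the series concerns Nrp1 and its ligand semaphorin-4a, had 3 of 18 members higher and 1 lower. Sema4a was at 6.46, 6.32 and 6.10 in activated, 6.45, 6.19 and 5.76 in resting and 8.38 and 8.71 in conventional cells. The Treg groups overlapped, both below the conventional cells, with a difference of -2.26 ± 0.24 for activated Treg (limma adjusted p = 0.00079). Plxnc1, a plexin receptor, was higher by 2.45 and shared, and Plxnd1 was higher by 0.78 and not separable, with a call that was lost under most alternatives, any left-out array except activated replicate 1 among them.

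Genes lower in both Treg groups included many that mark naive T cells. Of 38 naive and quiescence genes 17 were lower and 3 higher, with a median difference of -0.72. Of the lower ones 8 were shared with resting Treg, 2 were stimulated Treg genes and 7 were not separable. The count of lower members was 9 without either conventional array, 11 without activated replicate 2, and 10 on the 5 low arrays. Pde3b, a phosphodiesterase that degrades cyclic AMP, was at 7.96, 7.37 and 8.05 in activated, 8.16, 9.60 and 8.11 in resting and 12.93 and 13.09 in conventional cells. No Treg array came near the conventional ones, and activated Treg were lower by 5.22 ± 0.44 (a level 37.3 times higher in conventional cells; limma adjusted p = 0.000259). Igfbp4 (-4.95) and Dapl1 (-4.14) had differences in resting Treg of -5.11 and -4.13, and Dapl1 lost its call on the 5 low arrays. Lef1, a transcription factor of naive T cells, was lower by 2.02 on the log2 scale and by 1.55 in resting Treg.

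The largest decrease among shared genes was in Klrd1, the CD94 chain of NK cell receptors, with 4.99, 5.64 and 5.39 in activated, 6.98, 8.25 and 6.67 in resting and 12.03 on both conventional arrays. The groups formed 3 steps without overlap, and activated minus conventional was -6.69 ± 0.43 (limma adjusted p = 7.85e-05), while activated minus resting, -1.96 ± 0.38, missed the threshold (limma adjusted p = 0.0701). Klrd1 was the only called member of 10 CD8 and NK cell markers, and Cd8a, Ncr1 and Eomes differed by 0.10, -0.02 and 0.28. Pdlim4, a cytoskeletal LIM domain gene, was at 4.18, 4.28 and 4.10 in activated, 4.58, 4.11 and 4.43 in resting and 10.02 and 10.09 in conventional cells, with the smallest standard error among the 10 largest shared decreases (-5.87 ± 0.18). Vipr1, the receptor of vasoactive intestinal peptide, was lower in resting Treg (-3.20) and lower again with stimulation (-1.80; limma adjusted p = 0.0284), for a total of -5.0. It was 1 of 7 lower shared genes that were also lower against resting Treg. Trib3, a stress-induced pseudokinase, was another, with -3.21 in activated and -1.28 in resting Treg.

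Stimulation-linked transcription factors were divided between the splits. Of 33 factors that T cell receptor signals induce, 15 were higher and none lower, with a median of 1.10, and the count lay between 13 and 17 when any 1 array was left out. Egr2, Egr3, Nr4a1 and Nr4a3 were stimulated Treg genes. Egr3, an immediate early zinc finger factor, was at 10.21, 10.03 and 10.76 in activated, 4.78, 3.64 and 4.80 in resting and 5.05 and 4.92 in conventional cells. Resting Treg lay below the conventional cells by an amount that missed the threshold (-0.57 ± 0.37, limma adjusted p = 0.504), and activated Treg stood above conventional cells by 5.35 ± 0.37 (40.9-fold; limma adjusted p = 0.000107). Egr2 behaved alike, at 10.50, 10.04 and 10.62 against 5.13 and 5.54, with resting Treg at 6.22, 5.87 and 4.21. Nr4a1, which encodes the orphan nuclear receptor Nur77, was at 9.89, 9.88 and 10.78 in activated, 7.04, 8.54 and 7.51 in resting and 6.74 and 6.90 in conventional cells.

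Irf4, a factor of effector Treg and of T cell receptor strength, was instead stepwise. It was at 11.24, 10.98 and 11.42 in activated, 7.90, 7.39 and 7.16 in resting and 4.82 and 5.63 in conventional cells. All 3 groups were separate, with 2.27 ± 0.30 between resting Treg and conventional cells (limma adjusted p = 0.00407) and 3.73 ± 0.27 between activated and resting Treg (limma adjusted p = 0.00333). Egr1 was stepwise as well (1.34 in resting Treg and 4.0 in activated Treg over conventional cells). Maf (5.68 and 4.75), Bhlhe40 (4.37 and 3.41) and Nfil3 (3.86 and 3.39) were shared with resting Treg. Rora was shared, at 2.86 in activated and 3.63 in resting Treg. The 18 members that missed the threshold included Myc, Nfatc1, Batf and Junb. Myc, a driver of growth in stimulated T cells, was at 8.31, 8.09 and 8.08 in activated Treg, 6.63, 6.78 and 4.80 in resting Treg and 8.45 and 8.49 in conventional cells. For Myc the activated Treg arrays sat just below the conventional ones, and resting Treg were below both (-2.40 ± 0.52 against conventional cells, limma adjusted p = 0.0354; activated minus resting 2.09 ± 0.46, limma adjusted p = 0.1).

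Feedback on these signals was in part also higher. Of 17 MAP kinase feedback genes 5 were higher and 1 lower. Dusp4, an ERK phosphatase, was higher by 5.24 and shared (3.25 in resting Treg), and Spry1, an inhibitor of receptor signalling to Ras, by 3.98 (2.22). Dusp6, another ERK phosphatase, was a stimulated Treg gene. It was at 7.32, 6.28 and 7.31 in activated, 4.90, 4.16 and 4.81 in resting and 5.36 and 5.19 in conventional cells. Its call was lost without activated replicate 1 or either conventional array, and with the Actb class or the title code sets as a fixed block. For 25 T cell receptor signalling genes the median over conventional cells was -0.41 and -0.49 on activated replicates 1 and 2. It was -0.09 on activated replicate 3, the array with a low Actb difference. Of these genes 4 were higher and 6 lower. The lower ones included Themis (-2.81) and Lat (-2.02), the adaptor at the centre of receptor signalling, and Lat lost its call without activated replicate 1 or 2 or either conventional array.

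Of the 90 stimulated Treg genes, 31 belonged to the cell cycle lists, and all 31 were higher. Of 67 genes of mitosis and the spindle 47 were higher and none lower, with a median difference of 2.41 in activated Treg and 0.15 in resting Treg. Of the 47, 24 were stimulated Treg genes, 18 were not separable and 5 were shared with resting Treg. Of the 72 higher stimulated Treg genes, 34 belonged to no list. Several of the latter also act in division, such as Aspm, Spc24, Pbk and Ckap2l, named here after their values were seen. The count of 47 was 15 without conventional replicate 1 and 20 without conventional replicate 2, and 43 on the 5 arrays with a low Actb difference.

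Cdca8, the borealin subunit of the complex that corrects chromosome attachment, had the largest difference of the stimulated Treg genes. It was at 11.48, 10.55 and 11.37 in activated, 6.31, 6.21 and 8.57 in resting and 5.22 and 5.84 in conventional cells. Resting replicate 3 was above the other resting arrays, and every activated array was above it, with 5.60 ± 0.67 over conventional cells (limma adjusted p = 0.00157). On the 5 low arrays alone the call was lost, though Cdca8 on activated replicate 3, their only activated array, was 5.84 over conventional cells. Top2a, the topoisomerase that untangles sister chromosomes, was at 10.06, 8.96 and 10.61 in activated, 5.87, 5.86 and 7.0 in resting and 4.15 and 5.37 in conventional cells. Cep55, which acts in the final separation of daughter cells, was at 9.27, 8.26 and 9.99 in activated, 5.24, 4.47 and 3.75 in resting and 4.60 and 4.79 in conventional cells. For Top2a and Cep55 activated replicate 2 was the lowest and replicate 3 the highest activated array. That order held widely: replicate 2 was the lowest activated array in 44 of the 47 called members and replicate 3 the highest in 37. The list's median over conventional cells was 2.40 on replicate 1, 1.78 on replicate 2 and 2.94 on replicate 3, and lay between 0.04 and 0.23 on the resting arrays.

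Mki67, which encodes the proliferation marker Ki-67, was already higher in resting Treg. It was at 11.21, 10.13 and 11.54 in activated, 6.63, 6.91 and 7.51 in resting and 4.41 and 5.22 in conventional cells. The groups made 3 steps, of 2.20 ± 0.45 between conventional cells and resting Treg (limma adjusted p = 0.0285) and 3.94 ± 0.40 between resting and activated Treg (limma adjusted p = 0.00782). Melk, a mitotic kinase, departed from the rest of the list: resting Treg exceeded conventional cells by 3.90 and activated Treg by 3.43.

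Mitotic genes are known to share promoter elements, the CHR (TTTGAA or TTTAAA) and the CCAAT box, so the promoters of the 4 mitosis and spindle genes with the largest differences that hold a CHR match are shown. Each runs 5′ to 3′ along the gene's strand from 250 bases before to 50 after the RefSeq start (build GRCm38.p6), with CHR and CCAAT matches on either strand in capitals. The Mki67 promoter is at chr7:135716330-135716629 (minus strand), Cdca8 at chr4:124936868-124937167 (minus), Top2a at chr11:99024140-99024439 (minus) and Cep55, from 1 of its 2 listed starts, at chr19:38054734-38055033 (plus).
Mki67: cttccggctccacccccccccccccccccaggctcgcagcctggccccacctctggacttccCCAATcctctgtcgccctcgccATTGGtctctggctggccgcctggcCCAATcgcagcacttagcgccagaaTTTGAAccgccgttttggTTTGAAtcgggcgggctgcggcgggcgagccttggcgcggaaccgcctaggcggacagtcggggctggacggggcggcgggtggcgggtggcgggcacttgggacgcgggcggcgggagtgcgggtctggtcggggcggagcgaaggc
Cdca8: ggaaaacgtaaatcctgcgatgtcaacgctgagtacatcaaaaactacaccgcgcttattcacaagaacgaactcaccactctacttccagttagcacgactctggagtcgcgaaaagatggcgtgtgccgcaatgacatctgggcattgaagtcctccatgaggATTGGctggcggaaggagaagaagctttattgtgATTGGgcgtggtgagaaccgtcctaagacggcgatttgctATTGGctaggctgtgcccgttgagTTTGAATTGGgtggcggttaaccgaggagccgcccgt
Top2a: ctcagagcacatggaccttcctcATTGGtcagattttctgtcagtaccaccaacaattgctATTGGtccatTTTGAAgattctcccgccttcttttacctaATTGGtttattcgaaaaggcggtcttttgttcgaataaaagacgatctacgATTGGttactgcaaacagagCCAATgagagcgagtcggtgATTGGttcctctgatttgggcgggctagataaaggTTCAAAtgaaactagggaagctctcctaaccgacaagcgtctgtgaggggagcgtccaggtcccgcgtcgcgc
Cep55: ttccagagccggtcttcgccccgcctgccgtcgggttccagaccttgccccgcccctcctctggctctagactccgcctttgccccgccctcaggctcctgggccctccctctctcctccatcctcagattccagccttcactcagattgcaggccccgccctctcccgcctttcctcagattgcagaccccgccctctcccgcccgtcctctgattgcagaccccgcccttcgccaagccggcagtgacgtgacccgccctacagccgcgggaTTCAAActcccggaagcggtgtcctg
Top2a held 2 CHR and 6 CCAAT matches and Mki67 2 and 3, while Cep55 held 1 CHR match and no CCAAT match. In Cdca8, with 1 CHR and 4 CCAAT matches, the CHR match overlaps a CCAAT match. Of 63 promoters listed for 56 genes of the mitosis list, 73.0% held a CHR match and 69.8% a CCAAT match, beside 21.7% and 37.4% of 18110 promoters of all genes measured here. For the higher stimulated Treg genes the numbers with each match were 34 and 50 of 75 promoters (45.3% and 66.7%), and for the higher shared genes 109 and 197 of 563. The E2F motif (TTTNNCGC, either strand) was in 39.5% of 43 promoters of the DNA replication list and in 6.98% of those of all genes measured. These matches describe letters in a window and do not show that a factor was bound.

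**Figure D3:**
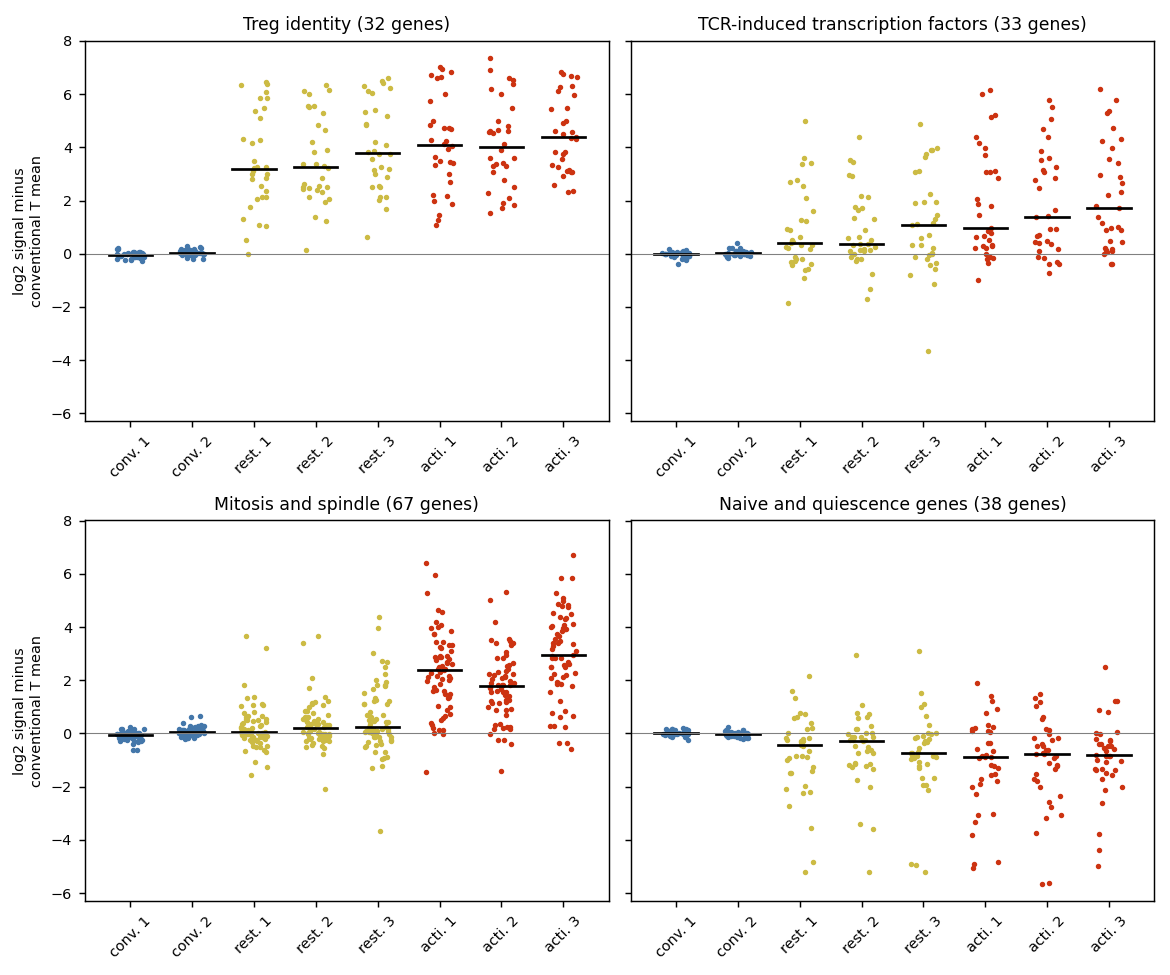
For 4 gene lists, each point is a gene's log2 signal on 1 array minus its mean over the 2 conventional arrays, with black lines at the median of the list on that array. The mitosis median is 2.40, 1.78 and 2.94 on the activated arrays and near 0 on the resting arrays, while the Treg identity median is above 3 on all 6 Treg arrays.

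Of 45 DNA replication genes 16 were higher and none lower, with a median of 0.78, and 7 were higher without either conventional array. Rrm2, the ribonucleotide reductase subunit that limits nucleotide supply, was at 10.83, 9.99 and 10.70 in activated, 7.65, 7.78 and 8.35 in resting and 6.42 and 6.86 in conventional cells. The activated arrays stood apart, by 3.87 ± 0.31 over conventional cells (limma adjusted p = 0.000225). Uhrf1, which maintains DNA methylation through replication, was higher by 3.47, and Mcm5, part of the replicative helicase, by 1.90. Of 26 G1 cyclins, E2F factors and CDK inhibitors 8 were higher and 1 lower, among them E2f8 (2.29) and Ccnd2 (0.90), both stimulated Treg genes. Cdkn1a, the p21 inhibitor, was higher by 2.39 and not separable, with resting Treg at 1.72, and its call was lost without either conventional array and on the 5 low arrays.

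The 18 lower stimulated Treg genes included factors of resting T cells. Klf2, a transcription factor of quiescence and lymph node homing, was at 11.32, 11.60 and 11.57 in activated, 12.46, 12.62 and 12.25 in resting and 13.13 and 13.11 in conventional cells. Its groups did not overlap, and activated Treg were lower than conventional cells by 1.63 ± 0.18 on the log2 scale (limma adjusted p = 0.000911) and lower than resting Treg by 0.95 (limma adjusted p = 0.0433). Tsc22d3, the glucocorticoid-induced leucine zipper gene, was at 8.49, 8.45 and 8.55 in activated, 9.19, 9.42 and 9.70 in resting and 9.39 and 9.38 in conventional cells, so that the resting Treg arrays surrounded the conventional ones. Axin2, a feedback inhibitor and target of Wnt signalling, was lower by 1.59, Adgre5, which encodes CD97, by 1.52 and the phosphate transporter gene Slc20a1 by 1.79 on the log2 scale, and the Axin2 call was lost without conventional replicate 2 and the Slc20a1 call on the 5 low arrays. The largest decrease was in Tdrp, at 6.75, 7.66 and 8.16 in activated, 10.09, 10.57 and 9.22 in resting and 11.50 and 11.40 in conventional cells, and its call was lost on the 5 low arrays.

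A few genes were called in resting Treg and lay nearer to or past the conventional level in activated Treg, where they missed the threshold against conventional cells. Of these 11 genes 6 (0.033%) were higher in resting Treg and 5 (0.0275%) lower. Spon1, a secreted matrix protein gene, was at 7.95, 7.82 and 7.81 in resting Treg against 5.27 and 5.49 in conventional cells, and at 5.88, 5.90 and 6.61 in activated Treg. Ada, adenosine deaminase, ran the other way, at 4.63, 4.69 and 4.60 in resting Treg, 6.03 and 6.19 in conventional cells and 6.57, 5.95 and 6.59 in activated Treg. The activated and conventional arrays overlapped for Ada. The DNA polymerase epsilon subunit gene Pole2 and the ketone body enzyme gene Oxct1 were also lower in resting Treg (-1.28 and -0.75) and called higher in activated than in resting Treg (1.93 and 1.04). For Pole2 and Oxct1 the activated arrays lay wholly above the conventional ones, by 0.65 and 0.29, which missed the threshold (limma adjusted p = 0.226 and 0.395).

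In each metabolic list most members were not called. Of 20 glycolysis and glucose uptake genes 5 were higher and 1 lower. Hk2, the inducible hexokinase, was at 7.5, 6.87 and 7.17 in activated, 5.61, 6.37 and 4.83 in resting and 4.65 and 4.91 in conventional cells, and was not separable. Ldha and Pkm, enzymes of late glycolysis, differed by -0.47 and -0.75 and missed the threshold. Of 26 cholesterol and fatty acid genes 4 were higher, led by the desaturase gene Scd2 (3.46), and of 25 amino acid and stress response genes 4 were higher and 2 lower, among them Odc1 (2.64), which makes polyamines, and Psat1 (2.97), which makes serine. Of 22 ER genes 2 (9.09%, beside 5.93% of all genes) were higher, Atf6 (2.48) and Xbp1 (1.20), regulators of the unfolded protein response. The list as a whole did not rise, with a median of -0.08 and 14 negative differences. Of 33 ribosome biogenesis genes none was higher and 5 were lower, with a median of -0.49. The list's median over conventional cells was lowest on the arrays with a high Actb difference. It was -0.85 and -0.67 on activated replicates 1 and 2 and -0.92 on resting replicate 1. On activated replicate 3 it was -0.30, and on resting replicates 2 and 3 it was -0.49 and -0.31. Wdr12, a ribosome assembly factor, was at 7.60, 7.76 and 8.60 in activated, 7.97, 8.96 and 7.48 in resting and 10.49 and 10.46 in conventional cells. Calls were lost without either conventional array for Hk2, Psat1, Atf6 and Wdr12, without conventional replicate 1 for Xbp1, and also without any 1 activated array and with the Actb class as a block for Atf6. On the 5 low arrays the calls of Hk2, Atf6 and Wdr12 were lost, and those of Hk2 and Atf6 also with the title code sets as a fixed block.

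Of 29 interferon response genes 3 (10.3%, beside 5.93% of all genes) were higher and 5 (17.2%, beside 3.77%) lower. Gbp3, an interferon-induced GTPase, was at 10.16, 10.09 and 10.67 in activated, 10.16, 10.61 and 10.60 in resting and 7.09 and 6.95 in conventional cells. Ifit2, an interferon-induced antiviral gene, went the other way, at 10.02, 10.19 and 10.33 in activated, 11.39, 11.62 and 10.98 in resting and 12.26 and 12.21 in conventional cells. Within the list, Gbp3 was thus alike in both Treg groups, and Ifit2 fell in steps of 0.91 and 1.15 on the log2 scale. Of 21 survival genes 3 (14.3%, beside 5.93% of all genes) were higher. They included Pmaip1 (2.83), which encodes the pro-death protein Noxa, and Bcl2l1 (1.70), which encodes BCL-XL and had another probe set of opposite sign. Of 23 JAK-STAT genes 5 were higher and 3 lower. Feedback inhibitors of cytokine receptors went both ways: Socs2 and Cish differed by 4.61 and 2.81, and Socs3 and Socs1 by -1.38 and -1.07, all shared with resting Treg. Stat5a, which transmits IL-2 signals, was higher by 2.57, and the kinase gene Jak1 was lower by 1.35 on the log2 scale. On the 5 low arrays Stat5a, Jak1 and Socs1 lost their calls. Stat5a also lost its call without either conventional array or activated replicate 2, Jak1 without conventional replicate 1 or 2, Socs1 without conventional replicate 1 or activated replicate 2, and Socs3 without conventional replicate 2.

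Cytokine genes of effector T cells were mostly not called. Of 27 effector cytokine and chemokine genes 3 (11.1%, beside 5.93% of all genes) were higher and none was lower. The 3 were Ccl5 (3.33), Tnfsf11 (2.66), which encodes RANKL, and Cxcl10 (1.23). On the 5 low arrays all 3 calls were lost. The calls of Ccl5 and Cxcl10 were also lost without either conventional array, and that of Cxcl10 also without any 1 activated array or resting replicate 2. With the Actb class or the title code sets as a fixed block the Cxcl10 call was lost as well. Il2, which Foxp3 represses, was at 4.32, 4.01 and 4.35 in activated, 3.93, 4.18 and 3.88 in resting and 4.89 and 4.80 in conventional cells. Both Treg groups were below the conventional cells for Il2, by 0.62 in activated Treg (limma adjusted p = 0.0686), all at low signal. Ifng, the interferon gamma gene, was at 5.65, 5.82 and 6.08 in activated, 4.98, 4.69 and 7.71 in resting and 3.74 and 3.81 in conventional cells, and missed the threshold (2.07 ± 0.77, limma adjusted p = 0.155).

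Markers of other cells moved with some Treg arrays. Of 16 myeloid markers 1 (6.25%) was called higher, Lyz1, a share close to the 5.93% of all genes. The list's mean log2 signal was 7.03 on activated replicate 1 and 5.70 and 5.39 on the other activated arrays. It was 5.19 to 5.76 on resting and 5.20 and 5.26 on conventional arrays. S100a8, a neutrophil and monocyte protein gene, was at 11.29 on activated replicate 1 and 6.22 and 4.10 on the others, beside 4.32 and 4.52 in conventional cells. Of 10 B cell markers 2 were higher, Cd79b (2.56) and Ighm (0.73), with a list mean of 5.76 to 6.31 on activated, 5.81 to 6.30 on resting and 5.24 to 5.32 on conventional arrays, and the B cell genes Pax5 and Cd79a differed by 0.16 and 0.51. The Cd79b and Ighm calls were lost without either conventional array. That of Ighm was also lost on the 5 low arrays, with the mean of all probe sets and with the title code sets as a fixed block. Of 10 markers of dendritic cells and MHC class II none was called, and the list mean was 6.2 to 6.77 on activated, 6.07 to 7.39 on resting and 5.72 to 5.76 on conventional arrays. H2-Aa, an MHC class II chain, was at 9.82, 7.84 and 9.38 in activated, 7.79, 8.86 and 10.55 in resting and 6.64 and 6.24 in conventional cells. None of 6 erythroid and stem cell markers was called. The part of these cells in the results was not tested; without activated replicate 1, on which the myeloid markers were highest, 38 of the mitosis genes, 30 of the Treg identity genes and 14 of the transcription factors were called higher, while the genes called for activated against resting Treg went from 135 to 12 and the stimulated Treg genes from 90 to 8.

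**Figure D4:**
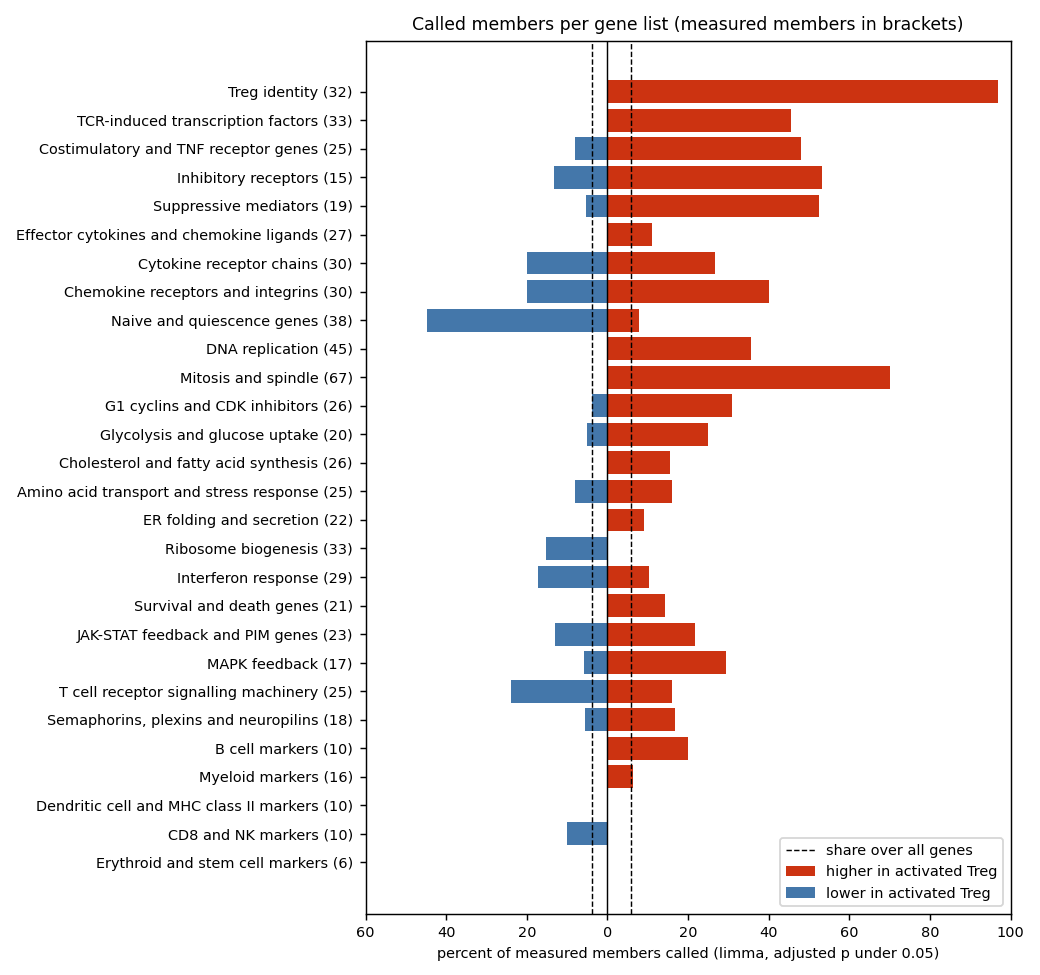
Share of the measured members of each gene list (number in brackets) called higher (red, to the right) or lower (blue, to the left) in activated Treg against conventional T cells, in percent. Dashed lines mark the shares over all genes, 5.93% higher and 3.77% lower. The Treg identity list (31 of 32) and the mitosis list (47 of 67) reach farthest to the right, and the naive and quiescence list (17 of 38) farthest to the left.

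At the threshold, Lyz1 (3.33), Dmac2 (-1.34) and Smox (0.84) were the last genes called, with limma adjusted p = 0.0498, 0.0498 and 0.0499. Mrps9 (0.65), Ltb (-1.10) and Klhl8 (-1.17) were the first to miss it, each with a limma adjusted p between 0.05004 and 0.05009. Size alone did not set a gene's side of the threshold, since Lyz1 had an SD of 1.58 (n = 3) in activated Treg and Smox one of 0.28.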

How the data were processed

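RNA from sorted mouse CD4 T cells was amplified and labelled by the Affymetrix two-cycle method and measured on 8 arrays (activated Treg 3, resting Treg 3, conventional T cells 2). The deposited values are log2 signal per probe set, made by the authors with RMA and Partek 6.6, per the submitters' processing notes; other steps are not given in the sources. The mean log2 value per array was 6.01 on every array, and the values carry no detection calls, so low signals were not separated from background.

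Of 45101 probe sets 35890 were listed with a gene in the platform annotation, 932 with several and 9211 unlisted; 34754 of 34958 single-gene probe sets matched a RefSeq Entrez identifier. For each of 18194 genes the probe set of highest mean signal across the 8 arrays was used. Among 1112 called genes with other probe sets, 2 (Atxn7l1 and Pafah1b1) had one called the other way.

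Genes were tested with limma 3.58.1 in R 4.3.3 (lmFit and eBayes, 1 fit of 3 group means, 5 residual degrees of freedom, two-sided, Benjamini-Hochberg over all genes, threshold 0.05). Errors after ± are standard errors from this fit unless marked SD. In total 3927 genes had an unadjusted p under 0.05. On simulated data with 200 changed genes, limma called 27% of those set to a log2 difference of 1 and 77% of those set to 2, with 6 of 110 calls false. The simulated noise was independent between arrays, with the same spread per gene in every group. The real arrays had correlated deviations, closer conventional arrays and 1765 called genes, so these shares may not hold for them. The number of arrays limits the precision.

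The members and gene lists were chosen with earlier results of these data known. Named genes were the 4 markers, Nrp1 and Sema4a, the 10 largest differences per direction in the shared and stimulated splits, up to 5 per direction with opposite change, up to 4 called members per list and direction, members a list's title rests on, and the 3 genes on each side of the threshold; others in the text were added after their values were seen, to describe their list. Replicate numbers follow accession order. The titles carry number codes whose meaning the labels do not give; codes alike but for the last digit made 4 sets (activated 1; activated 2 and resting 1; activated 3, resting 2 and conventional 1; resting 3 and conventional 2). Alternatives were each array left out, other fits (the 5 arrays compared alone, the Actb class as a block or the low class alone, array weights, trended and robust prior), the title code sets as a fixed or random block (added after the data were seen), quantile normalization, the mean of all probe sets, a filter on probe sets under 6 on the log2 scale, and other thresholds. Promoters came from a RefSeq table of build GRCm38.p6.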

Additional observations from a re-analysis of the deposited data

Results flagged for a closer look

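Kcna2, a voltage-gated potassium channel gene, moved in opposite directions in the Treg groups. Its log2 signal was 5.21, 5.75 and 5.41 in activated Treg, 7.31, 7.10 and 7.21 in resting Treg and 6.47 and 6.17 in conventional T cells, so resting Treg lay wholly above and activated Treg wholly below the conventional cells. The test of the difference itself, activated minus resting Treg, gave -1.75 ± 0.18 (limma adjusted p = 0.00782), beside -0.865 against conventional cells in activated and 0.88 in resting Treg. Another of its probe sets had a difference of 0.54 in activated Treg, opposite in sign, and the call against conventional cells was lost without activated replicate 1 or 3, resting replicate 2 or either conventional array, on the 5 arrays of low Actb difference, with the 5 compared arrays alone, with a trended and robust prior, with the title code sets as a fixed block, and with the mean of all probe sets.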

How the results depend on the processing

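No paired analysis was possible because the replicate numbers follow accession order and the labels do not say what the title codes mark. The sets formed by those codes were tried as blocks after the data were seen. Deviations from the group means correlated across genes at 0.46 and 0.37 for the pairs of activated with resting arrays in a set. Activated and resting arrays of different sets correlated at between -0.56 and 0.26. Pairs in a set with a conventional array correlated at -0.03, 0.06 and 0.11, but the deviations of only 2 conventional arrays mirror each other. The arrays of each set were also of the same Actb class. Whether the codes mark pairs or batches was not tested. As a fixed block, which leaves 2 residual degrees of freedom, the sets gave 1983 genes for the main comparison, 1980 for resting Treg against conventional T cells and 73 for activated against resting Treg, with 1268 shared and 35 stimulated Treg genes. As a random block (consensus correlation 0.405) they gave 2401, 2066 and 478, with 1389 and 255. Of 155 named genes 18 lost their call with the fixed and 1 with the random block. When each array was left out in turn, the genes called ranged from 433 to 2262 for activated Treg against conventional T cells, 242 to 1208 for resting Treg against conventional T cells and 12 to 168 for activated against resting Treg. The shared genes ranged from 217 to 907, the stimulated Treg genes from 8 to 115 and those not separable from 191 to 1306. The 5 arrays of low Actb difference gave 873 for the main comparison, 24 for activated against resting Treg, 506 shared, 21 stimulated Treg and 344 not separable genes. Array weights gave 5894, 3005 and 957 for the 3 comparisons and 2204, 535 and 3141 for the splits, and an adjusted p under 0.01 gave 790, 412 and 24, and 358, 19 and 413. With the Actb class as a block the counts were 1633 for resting Treg against conventional T cells, 318 for activated against resting Treg, 172 stimulated Treg genes and 549 not separable. Other settings kept these 6 counts within 1.5 times. Without activated replicate 3 the called split of the main comparison was 1121 higher and 1141 lower, beside 1079 and 686 with all arrays. Array weights turned the called split of the main comparison to 2834 higher and 3060 lower. Of 155 named genes, 62 lost their call without conventional replicate 1 and 58 without replicate 2, and no called gene changed direction in any setting. For genes not called, Ada turned to -0.0221 with array weights and Ensa to 0.20 with the mean of all probe sets; the cause was not tested.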
